A study of Mus musculus with 6 samples.

Results

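The genes described here are the regulators and stress targets of the tumour suppressor p53 that lie outside the BCL2 family and the inhibitors of cyclin-dependent kinases. The set was named by symbol as 10 genes: Trp53, Mdm2, Mdm4, Ccng1, Zmat3, Phlda3, Trp53inp1, Sesn1, Plk2 and Ei24. Of these, 9 had an array row paired with their symbol alone, out of 22180 such genes in all, and Trp53 itself was not analysed here. Where a gene has several rows of its own, the row with the highest mean over the 6 arrays stands for it, but each of the 9 had a single one.

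The cells were cardiomyocytes cultured from hearts of 1-day-old C57BL/6 mice and enriched by pre-plating, in which faster-attaching cells settle first and are left behind. The 3 FGF21 samples were kept for 12 h at 2% oxygen, 93% nitrogen and 5% carbon dioxide in the presence of 1 µg/ml FGF21, a circulating member of the fibroblast growth factors. The 3 control samples had the same 12 h of hypoxia without FGF21. The series asks which genes FGF21 regulates in hypoxic cardiomyocytes, so hypoxia is common to both groups and its own effect was not measured. The titles call the samples biological replicates, but the labels do not say whether these are separate litters or cultures, so p-values measure only the spread between these samples.

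p53 is a transcription factor that is made all the time and kept scarce by Mdm2, a ubiquitin ligase that marks it for the proteasome, together with Mdm4, a relative of Mdm2 that covers its activation domain. DNA damage and other stresses release p53, which then switches on genes of cell cycle arrest, repair, metabolism and cell death. Mdm2 is one of those genes, which closes a feedback loop. p53 activity is set largely by the stability of the protein, so the mRNA of its targets is the usual readout on arrays. In heart muscle p53 is known for its part in ischaemic injury and in the response to hypertrophic load.

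The promoter stretches below are shown because they hold the 10-base p53 half-site consensus near the start of members whose values follow. RefSeq promoter windows on build GRCm38.p6, from 250 bases before to 50 bases after a gene start, were found for 7 of the 9 measured members, with 9 windows among them. The consensus reads the same on both strands and was searched by its letters without mismatches. It was present in 4 of the 9 windows, against 8.36% of all 32851 windows, and in 4 of the 7 members, against 9.55% of all genes with a window. Pairs of half-sites separated by at most 13 bases, the form of a full p53 element, were in 0 of the member windows and in 0.0731% of all windows. An element outside these windows, for example in an intron, or one with a mismatch would not have been found. In the lines that follow, each 5′ to 3′ on the strand of the gene, capitals mark the half-site.
Mdm2, chr10:117710759-117711008, minus strand, the 250 bases before the start, half-site from 186 bases before it: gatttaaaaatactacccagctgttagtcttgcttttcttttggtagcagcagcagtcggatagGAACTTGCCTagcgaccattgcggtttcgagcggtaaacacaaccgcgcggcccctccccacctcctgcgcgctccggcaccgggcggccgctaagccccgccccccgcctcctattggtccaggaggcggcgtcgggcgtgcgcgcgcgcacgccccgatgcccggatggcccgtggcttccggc
Ccng1, chr11:40755437-40755496, minus strand, half-site from 185 bases before the start: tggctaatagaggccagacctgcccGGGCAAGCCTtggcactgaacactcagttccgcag
Sesn1, chr10:41887241-41887300, plus strand, before the second of its listed starts, half-site from 173 bases before it: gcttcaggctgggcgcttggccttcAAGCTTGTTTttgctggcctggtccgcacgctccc
Ei24, chr9:36797335-36797369, minus strand, half-site from 10 bases before the start: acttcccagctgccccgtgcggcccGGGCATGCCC
The windows of Mdm4, Phlda3 and Plk2 held no such match. These are matches of letters only, and binding of p53 was not measured.

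None of the 9 members passed limma at an adjusted p under 0.05 over all genes, and 0% of all genes did. The smallest adjusted p among the members was 0.312, for Mdm2. At an unadjusted p under 0.05 there were 2 members, Mdm2 and Zmat3, both higher with FGF21, against 11.7% of all genes in either direction and 6.59% in the higher direction. The same 2 members had groups that did not overlap, against 17.1% of all genes, 8.99% in the higher and 8.14% in the lower direction. Of all genes at that unadjusted p, 56.3% were higher, and 79.9% after median centring of the arrays. By sign alone, 8 of the 9 members were higher with FGF21, against 47.8% of all genes, and Mdm4 was lower, with a median log2 difference of 0.05 against -0.01 for all genes. That tally was 5 of 9, with a median of 8.84e-05, when quantile normalization was repeated, and 6 of 9 without control replicate 1, and the share of all genes was 61.8% after median centring. All 9 members lie among the brighter genes, and these differ from the rest: in the 2 brightest of 5 equal bins of mean level, 67.3% of 8872 genes were higher with FGF21, the median difference was 0.05 and 13.1% were higher at an unadjusted p under 0.05. The members' median was close to that of genes of their own brightness. Bulk RNA cannot tell apart fewer cells of a type and less RNA per cell.

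**Figure D1:**
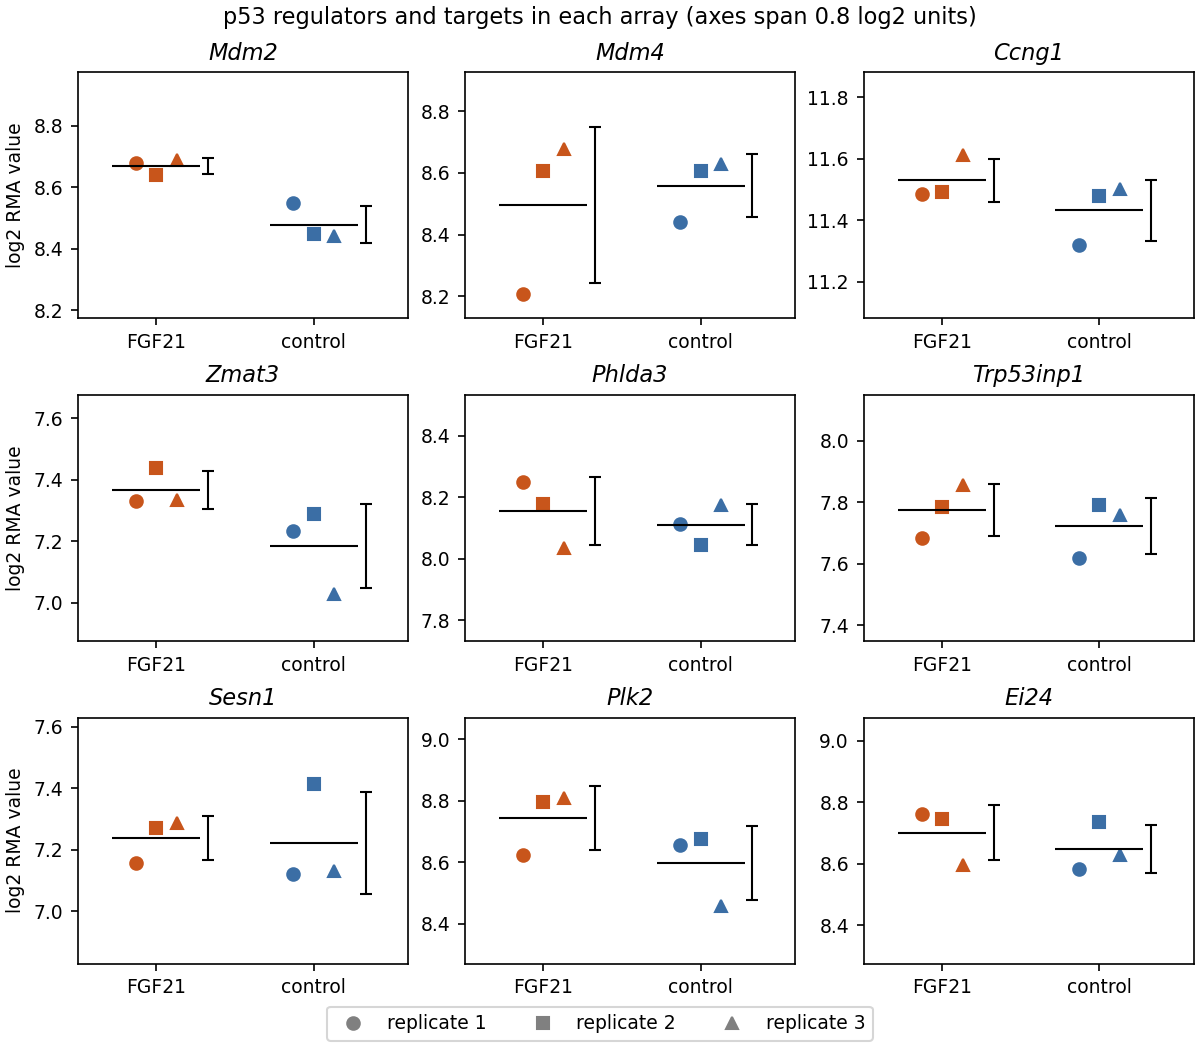
Log2 RMA value of each of the 9 members in each array, FGF21 at the left and control at the right of each panel; symbols give the replicate number, horizontal bars the group mean and error bars 1 SD (n = 3). The groups are apart for Mdm2 and Zmat3 and overlap for the other 7 genes, and FGF21 replicate 1 sits low for Mdm4, at 8.21.

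Mdm2 (probe set 17245248) had log2 values of 8.68, 8.64 and 8.69 in the FGF21 arrays, against 8.55, 8.45 and 8.44 in the control arrays. Every FGF21 array was above every control array. The means were 8.67 ± 0.0269 with FGF21 and 8.48 ± 0.0607 without (SD, n = 3 each), a log2 difference of 0.19 ± 0.06 (SE) or 1.14-fold, with a 95% interval of 1.03 to 1.26-fold. limma gave an unadjusted p of 0.0132 and an adjusted p of 0.312, so the difference did not pass. Mdm2 was the 933rd of the 22180 genes in order of p. It was also the steadiest member within groups: its pooled SD of 0.0470 was lower than that of most genes, at the 11.2 percentile. With each array left out in turn the difference stayed between 0.171 and 0.225, and the unadjusted p of limma between 0.00804 and 0.0427. With quantile normalization applied again it was 0.13, with an unadjusted p of 0.0833.

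Mdm4 (probe set 17226953), the relative of Mdm2 that holds p53 inactive without marking it for destruction, had 8.21, 8.60 and 8.68 with FGF21, against 8.44, 8.61 and 8.63 in controls. FGF21 replicate 1 was the lowest of the 6 arrays and FGF21 replicate 3 the highest, so the FGF21 group covered the whole control range. The log2 difference was -0.06 ± 0.12 (SE), with a 95% interval of -0.32 to 0.20 and an adjusted p of limma of 0.872. Mdm4 varied most of the 9, with a pooled SD of 0.193, at the 95.4 percentile of all genes. Without FGF21 replicate 1 its difference turned to 0.08. As a fold the interval ran from 0.800 to 1.15, so these arrays did not settle the direction of any difference.

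Zmat3 (probe set 17404585) encodes a zinc finger protein that binds RNA and is a p53 target in many tissues. It had 7.33, 7.44 and 7.33 in the FGF21 arrays, against 7.23, 7.29 and 7.03 in the control arrays. The groups did not overlap, but the gap was small: the lowest FGF21 array stood at 7.33 and the highest control at 7.29. The difference was 0.18 ± 0.08 (SE), 1.14-fold with a 95% interval of 1.00 to 1.29, and limma gave an unadjusted p of 0.0450 and an adjusted p of 0.415. With an array left out, the unadjusted p of limma stayed under 0.05 only without control replicate 2, at 0.0237. It was 0.0570, 0.141 and 0.0653 without FGF21 replicates 1, 2 and 3, 0.0516 without control replicate 1 and 0.176 without control replicate 3, where the difference was 0.11. It was 0.0836 when quantile normalization was repeated, 0.0648 with all rows tested and 0.101 without moderation of the variance. A further row, paired with both Zmat3 and 4930429B21Rik (probe set 17396673), averaged 6.29 with FGF21 and 6.31 in controls, a difference of -0.02 ± 0.08 (SE). Because that row has more than 1 symbol it was not used for Zmat3, but it did not show the difference of the gene's own row.

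Plk2 (probe set 17289794), a polo-like kinase of the stress response, had 8.63, 8.80 and 8.81 with FGF21, against 8.66, 8.67 and 8.46 in controls. FGF21 replicates 2 and 3 were above all controls, while FGF21 replicate 1 lay among them. The difference was 0.15 ± 0.08 (SE), 1.11-fold with a 95% interval of 0.975 to 1.26, and did not pass (limma adjusted p of 0.517). It ranged from 0.0779 without control replicate 3 to 0.206 without FGF21 replicate 1, and reached an unadjusted p of limma of 0.0382 in the second case.

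Ccng1 (probe set 17261865) encodes cyclin G1, which brings a phosphatase to Mdm2 and is itself switched on by p53. Its row was among the brightest on the array, at the 99.4 percentile of mean level. It had 11.48, 11.49 and 11.61 with FGF21, against 11.32, 11.48 and 11.50 in controls. Control replicate 1 was the lowest array, and control replicate 3 lay within the FGF21 range. The difference was 0.10 ± 0.07 (SE), with a 95% interval of 0.955 to 1.20-fold (limma adjusted p of 0.639). It was 0.0399 without control replicate 1 and 0.0561 without FGF21 replicate 3.

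Phlda3, Sesn1, Trp53inp1 and Ei24, members that act on growth signalling or autophagy, had overlapping groups. Phlda3 (probe set 17217619), whose product competes with Akt for membrane lipids, had 8.25, 8.18 and 8.03 with FGF21, against 8.11, 8.04 and 8.18 in controls. FGF21 replicate 3 was the lowest of the 6 arrays and FGF21 replicate 1 the highest. Its difference was 0.04 ± 0.07 (SE), with a 95% interval of 0.918 to 1.16-fold (limma adjusted p of 0.860).

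Sesn1 (probe set 17232912) encodes sestrin 1, which restrains the growth kinase complex mTORC1. It had 7.16, 7.27 and 7.29 with FGF21, against 7.12, 7.41 and 7.13 in controls. Control replicate 2 was the highest array, and the other controls were the lowest. The difference was 0.02 ± 0.09 (SE), the smallest of the 9, with a 95% interval of 0.883 to 1.16-fold (limma adjusted p of 0.959).

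Trp53inp1 (probe set 17411751) encodes a stress-induced nuclear protein that promotes p53 activity and autophagy. It had 7.68, 7.79 and 7.86 with FGF21, against 7.62, 7.79 and 7.76 in controls. The highest array was FGF21 replicate 3 and the lowest control replicate 1, and the ranges overlapped. The difference was 0.05 ± 0.07 (SE), with a 95% interval of 0.924 to 1.16-fold (limma adjusted p of 0.821).

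Ei24 (probe set 17525548) encodes a membrane protein of the endoplasmic reticulum needed for autophagy. It had 8.76, 8.74 and 8.60 with FGF21, against 8.58, 8.74 and 8.63 in controls. FGF21 replicate 3 was below 2 of the 3 controls. The difference was 0.05 ± 0.07 (SE), with a 95% interval of 0.926 to 1.16-fold (limma adjusted p of 0.816). It ran from 0.0188 to 0.104 with an array left out, and was -0.00896 when quantile normalization was repeated.

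**Figure D2:**
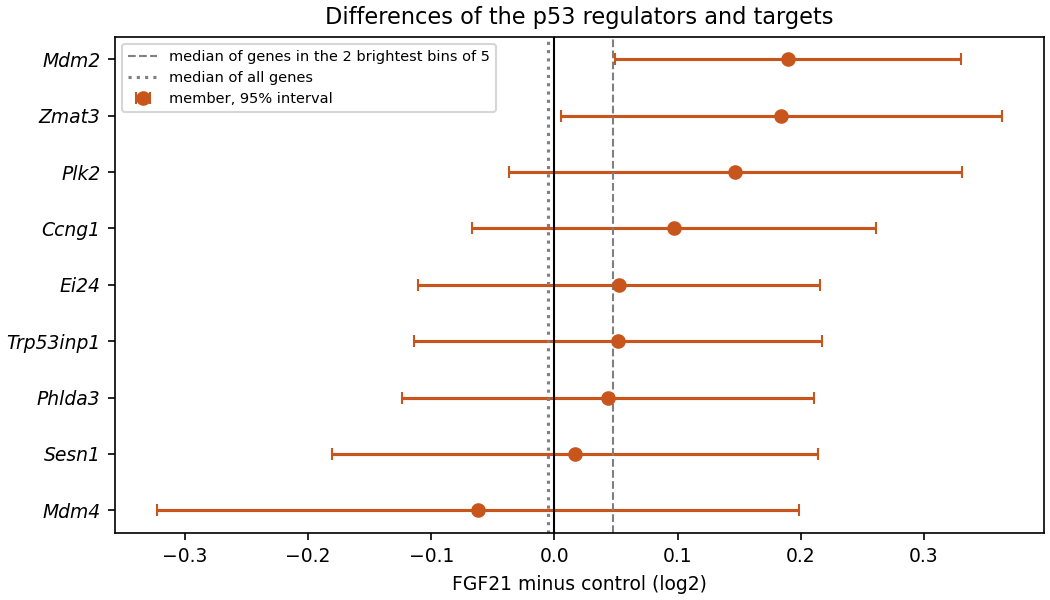
Log2 difference of FGF21 minus control for each member, with its 95% interval from limma; the dashed line is the median of genes in the 2 brightest of 5 bins, 0.05, and the dotted line that of all genes, -0.01. The intervals of Mdm2 and Zmat3 lie above 0 before adjustment, and the other 7 cross it.

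For the 7 members other than Mdm2 and Zmat3, the intervals show what size of change the 6 arrays can still hold. The highest upper limit was that of Plk2, at 1.26-fold, and the lowest lower limit that of Mdm4, at 0.800-fold. The members also differed between arrays within a group. Measured against each gene's own mean over the 6 arrays, FGF21 replicate 2 was above it for 9 of 9 members, FGF21 replicate 3 for 7 and FGF21 replicate 1 for 5. Control replicate 2 was above it for 6, control replicate 3 for 4 and control replicate 1 for 0. FGF21 replicate 3 was the highest of the 6 arrays for 5 members, and control replicate 1 the lowest for 4. The mean log2 level of the 9 members was 8.46, 8.55 and 8.54 in the FGF21 arrays, against 8.40, 8.50 and 8.42 in the control arrays, and these ranges overlapped. Control replicate 2 was above FGF21 replicate 1.

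**Figure D3:**
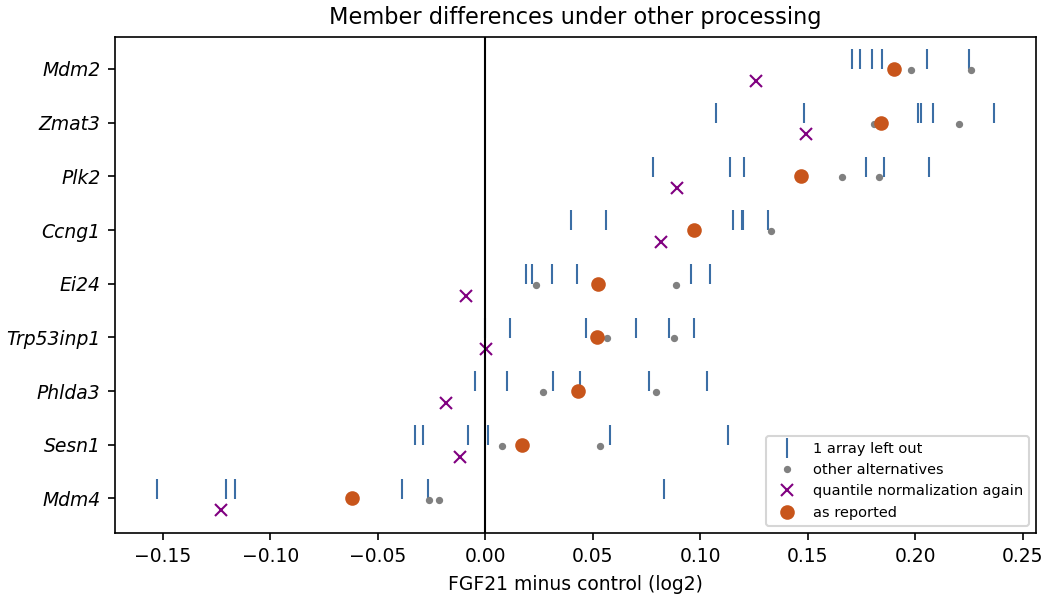
Log2 difference of FGF21 minus control for each member as reported (filled circles), with 1 array left out (vertical ticks), with quantile normalization applied again (crosses) and in the other alternatives (dots). Mdm2, Zmat3, Plk2 and Ccng1 stayed above 0 in each of the 15 alternatives shown, while Mdm4, Phlda3, Trp53inp1, Sesn1 and Ei24 crossed 0 in at least 1.

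The best-known p53 targets outside the set did not pass either. Cdkn1a, the gene of the cell cycle inhibitor p21, had 10.32, 10.47 and 10.37 with FGF21, against 10.46, 10.33 and 10.29 in controls, a difference of 0.02 ± 0.07 (SE, limma adjusted p of 0.927). It turned to -0.0175 without FGF21 replicate 2 and to -0.02 with quantile normalization applied again. Bbc3, the gene of the death-promoting protein Puma, averaged 5.35 with FGF21 and 5.36 in controls, a difference of -0.01 ± 0.06 (SE). It is dim, at the 29.5 percentile of mean level. With an array left out the difference ran from -0.0375 without FGF21 replicate 1 to 0.0185 without control replicate 3. It was 0.0239 with median centring and 0.0315 with a repeated quantile normalization. Bax, another p53 target of the death pathway, was not analysed here.

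Of 41 other p53 targets on a list, 35 were measured, and 0 passed limma at an adjusted p under 0.05. The list had 23 members higher and 12 lower with FGF21, with a median of 0.03. Groups did not overlap for 7 in the higher and 3 in the lower direction, against 8.99% and 8.14% of all genes. In the 2 brightest bins 17.7% of genes were higher without overlap. At an unadjusted p under 0.05, 5 were higher and 1 lower, against 6.59% and 5.11% of all genes. The 5 higher targets lie in the 2 brightest of 5 bins of mean level. In those bins 13.1% of genes were higher at that p. Xpc, Aen, Eda2r, Psrc1, Bbc3, Pmaip1, Rprm, Dcxr, Trp53rka, Trp53rkb and Tnfrsf18 lie outside them. The shares of those bins, 13.1% and 17.7%, are thus not matched to all 35 targets. Rrm2b, the p53-driven subunit of ribonucleotide reductase, had 7.60, 7.74 and 7.80 with FGF21, against 7.44, 7.43 and 7.51 in controls, a difference of 0.26 ± 0.07 (SE) with a limma adjusted p of 0.250. Its groups did not overlap. Tnfrsf10b, the death receptor for TRAIL, differed by 0.23 ± 0.07 (SE), with 7.22, 7.30 and 7.34 with FGF21, against 7.02, 7.16 and 7.01 in controls, and a limma adjusted p of 0.286.

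The one listed target lower at that level was Trp53i11, a p53-inducible gene. It had 8.60, 8.87 and 8.73 with FGF21, against 9.58, 9.29 and 8.98 in controls. All FGF21 arrays lay below all controls, and the controls were widely spread, with an SD of 0.297 against 0.134 with FGF21. The difference was -0.55 ± 0.13 (SE), 1.46-fold lower with FGF21, with a limma adjusted p of 0.205. It was -0.40 without control replicate 1 and -0.70 without control replicate 3. Its size exceeded that of each of the 9 members and of the other 34 targets on the list.

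Of 29 further p53 regulators on a list, 28 were measured, 18 higher and 10 lower, with a median of 0.06 and 0 past the adjusted threshold. Usp10, a deubiquitinase that stabilises p53, had 7.22, 7.41 and 7.24 with FGF21, against 7.13, 7.03 and 7.09 in controls, a difference of 0.21 ± 0.07 (SE, limma adjusted p of 0.327). Cop1, a ubiquitin ligase that acts on p53 alongside Mdm2, differed by 0.16 ± 0.07 (SE, limma adjusted p of 0.399), with 9.67, 9.77 and 9.81 with FGF21, against 9.52, 9.63 and 9.61 in controls. These were the 2 of 28 regulators at an unadjusted p under 0.05, against 11.7% of all genes, and for both every FGF21 array was above every control. Groups did not overlap for 3 of the 28, against 17.1% of all genes. Wrap53, whose transcript overlaps the p53 gene in antisense, and Trp73, a relative of p53, had differences of -0.15 ± 0.08 and -0.14 ± 0.08 (SE). For Wrap53 the highest FGF21 value equalled the lowest control value, at 6.31, and for Trp73 the groups overlapped. Wrap53 was at -0.0798 without FGF21 replicate 1, and Trp73 at -0.0717 without control replicate 3.

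**Figure D4:**
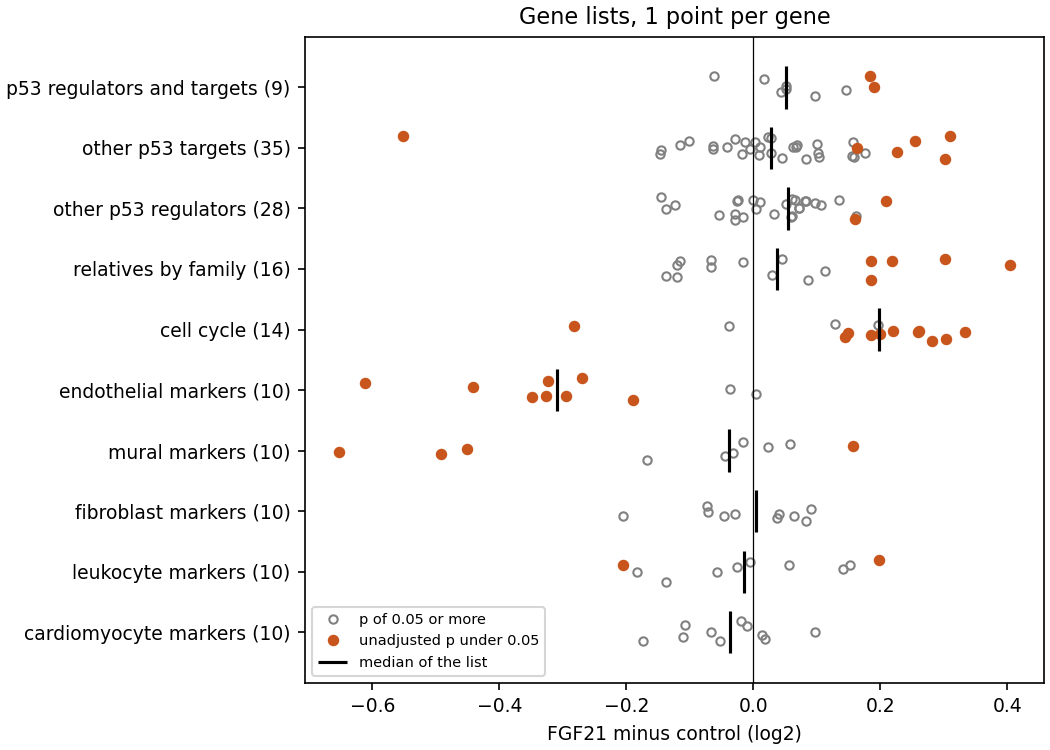
Log2 difference of FGF21 minus control for each gene of the p53 lists and of the marker lists, 1 point per gene, filled where limma's unadjusted p is under 0.05, with the list median as a black bar and the number of genes in brackets. The p53 lists have medians between 0.03 and 0.06, the cell cycle list 0.20 and the endothelial list -0.31.

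Of 16 relatives of the members by gene family, all were measured, 9 higher and 7 lower with FGF21, with a median of 0.04. By sign, 47.8% of all genes were higher. For 6 of the 16 the groups did not overlap, each higher with FGF21. That compares with 8.99% of all genes and 17.7% of those in the 2 brightest bins. At an unadjusted p under 0.05, 5 relatives were higher, against 6.59% of all genes and 13.1% of those in the 2 brightest bins. The adjusted threshold was passed by 0. Of the 16, 4 lay below the lowest array median. Phlda2, Plk3, Plk5, Trp63, Trp73, Zmat1, Zmat4 and Zmat5 lay below the 2 brightest bins. Zmat1 is among the 5 higher relatives, so the shares of those bins are not matched to this list. The lists share genes: Sesn2 is also among the 5 higher targets above, and Plk1, another of these 5 relatives, is on the cell cycle list. Trp63 and Trp73 are also on the list of regulators, and Ppm1d is on those of regulators and targets. Sesn2, a sestrin that also responds to stress of the endoplasmic reticulum, had 7.06, 7.40 and 7.03 with FGF21, against 6.91, 6.89 and 6.79 in controls, a difference of 0.30 ± 0.10 (SE, limma adjusted p of 0.311). FGF21 replicate 2 stood well above the rest, and without it the difference was 0.18. Sesn3 differed by 0.11 ± 0.07 (SE), and by 0.0653 without control replicate 2. Whether the sestrins differ from each other in their response was not tested. Ccng2, the relative of Ccng1, was at -0.07 ± 0.07 (SE), -0.122 without control replicate 3 and -0.0268 without control replicate 2.

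Plk4, the polo-like kinase of centriole duplication, had 7.66, 7.67 and 7.69 with FGF21, against 7.06, 7.39 and 7.35 in controls. Its FGF21 arrays lay close together and above every control, and the difference was 0.40 ± 0.09 (SE), 1.32-fold, with a limma adjusted p of 0.177. It was 0.30 without control replicate 1. Of the relatives of Zmat3, Zmat2, a splicing factor, differed by 0.19 ± 0.07 (SE) and Zmat1 by 0.22 ± 0.08 (SE), with limma adjusted p-values of 0.339 and 0.361.

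Markers of dividing cells and of vessels are given beside these values, although 0 of them passed limma at an adjusted p under 0.05. Of 14 measured cell cycle genes, 10 were higher and 1 lower at an unadjusted p under 0.05, against 6.59% and 5.11% of all genes. Their mean level ran from 7.93 to 7.98 in the FGF21 arrays and from 7.74 to 7.82 in the control arrays. Of 10 endothelial markers 8 were lower at that level, with mean levels of 6.98 to 7.22 with FGF21 and 7.31 to 7.53 in controls, and of 10 mural cell markers 3 were lower and 1 higher, with 8.66 to 8.78 with FGF21 and 8.81 to 8.97 in controls. The median difference of the mural list was -0.04, so its lower mean rests on a few genes. Fibroblast markers ran from 10.15 to 10.28 with FGF21 and from 10.21 to 10.29 in controls, and leukocyte markers from 7.61 to 7.73 with FGF21 and from 7.65 to 7.68 in controls. The 10 cardiomyocyte markers ran from 11.40 to 11.43 with FGF21 and from 11.41 to 11.55 in controls, and all 10 were above the lowest array median. The same held for all 10 fibroblast, endothelial and mural markers and for 9 of 10 leukocyte markers. The part of these markers in the values of Mdm2, Zmat3 and the other p53 genes was not tested.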

How the data were processed

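The authors deposited log2 values from RMA, the robust multi-array average, run with affy under R 3.2.2 according to the submitters' processing notes. RMA gives all arrays like distributions, so a global shift can be lost, and small differences of dim genes shrink. The chip definition is not given in the sources used here. Of 41345 rows, 23521 had 1 gene symbol, 1814 several, and the naming table left 16010 unnamed. The brightest row stood for each of the 22180 genes. Array medians ran from 5.76 to 5.79 with FGF21 and from 5.81 to 5.83 in controls. The number of arrays limits the precision.

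FGF21 minus control was fitted over all genes in R 4.3.3 by lmFit and eBayes of limma 3.58.1, two-sided, with Benjamini-Hochberg adjustment and a threshold of 0.05. The fit was tested on simulated data. The members and lists were chosen with earlier results of these data known, so no list was tested. Named genes were all members, up to 4 genes of smallest p in each p53 list, and Cdkn1a, Bbc3 and Sesn2. Sesn3 and Ccng2 were named after their values were seen. Other genes of the p53 lists are named only for list overlap, mean level or equal values. The alternatives were leaving out each array, a block for the replicate number, a filter on dim genes, the mean of a gene's rows, all rows, quantile normalization applied again, median centring, a trend and robust prior, array weights and an ordinary equal-variance statistic. Promoter sequences are from RefSeq, GRCm38.p6.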

Additional observations from a re-analysis of the deposited data

How the results depend on the processing

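None of the 9 members passed an adjusted p under 0.05 in any of the 15 alternatives, the smallest being 0.199, for Mdm2 after median centring. Over all genes, limma called 0 as reported and 2 when rows of a gene were averaged, 2 with array weights, 5 with quantile normalization applied again, 12 with median centring, 16 under a prior with trend and robust settings and 58 after removal of genes under the median level; with an array left out it called from 0 to 2. The 2 members at an unadjusted p under 0.05 became 1 with all rows tested or with an ordinary equal-variance statistic, and 0 with quantile normalization applied again; with an array left out they were 1 to 2. Without FGF21 replicate 1 the 2 were Mdm2 and Plk2. The median of the members was 0.0524, ran from 0.0399 to 0.113 with an array left out, and was 8.84e-05 with quantile normalization applied again, where 5 of 9 members were higher. That setting turned Phlda3 to -0.0183, Sesn1 to -0.0117 and Ei24 to -0.00896. With an array left out, Mdm4 ran from -0.153 to 0.0828 and Phlda3 from -0.00499 to 0.103, both turned by FGF21 replicate 1. Trp53inp1 ran from -0.000182 (without control replicate 1) to 0.0972, and Sesn1 from -0.0327 to 0.113, turned by FGF21 replicate 3 and by control replicates 1 and 3. The row of Zmat3 shared with another symbol, tried after seeing the data, gave -0.0174. The causes were not tested. Of all genes at an unadjusted p under 0.05, 56.3% were higher as reported, 79.9% with median centring and 75.2% with dim genes left out. Arrays of the same number had deviations that correlated at 0.103, 0.158 and 0.00653, and arrays of different numbers at -0.160 to 0.0416. The values of 0.103 and 0.158 were thus above all those of different numbers. The labels state no pairing, so the main fit had no block, and whether the numbers pair the samples was not tested. With the replicate number as a block, 0 genes passed, 2 members were at an unadjusted p under 0.05 and the member median was 0.0524, and 2902 genes were at an unadjusted p under 0.05, against 2594 without it.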

Other observations

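Some genes had exactly the same deposited value in several arrays. Of all genes, 2420 (10.9%) shared a value between at least 2 of the 6 arrays and 495 (2.23%) between at least 3, but 0 of the 9 members did. For example, Trp63 stood at 5.04 in all 3 FGF21 arrays. Bbc3 stood at 5.33 in FGF21 replicate 3 and in control replicates 1 and 2. Wrap53 stood at 6.31 in FGF21 replicate 2 and in control replicates 1 and 2.

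Trp53i11 and Plk4 had the largest differences among the p53 lists and in opposite directions, at -0.55 and 0.40. Both were spread more widely in controls than with FGF21: the SDs were 0.134 with FGF21 and 0.297 in controls for Trp53i11, and 0.0152 with FGF21 and 0.179 in controls for Plk4.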
